A study of Mus musculus with 9 samples.

Results

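The 10 genes described here are the transcription factor gene Nfe2l2, which encodes Nrf2, and 9 genes of oxidative stress defence: Nqo1, Hmox1, Gclc, Gclm, Txnrd1, Srxn1, Sod2, Cat and Gsta4. They were taken by name from a table of 54532 Ensembl gene identifiers, and each of the 10 matched 1 identifier. All 10 passed the filter on low counts that left 15224 genes for testing. Bulk RNA was sequenced from the submandibular gland, a major salivary gland, of wild-type mice given 10 Gy, with 3 libraries at 30 days, 3 at 60 days and 3 at 90 days after irradiation. Every group was irradiated and no unirradiated gland was analysed here, so the values show differences between time points and not the response to radiation, and elapsed time and ageing cannot be told apart. Strain, age and sex are not in the labels, which also do not say that the 3 samples of a group came from separate animals, so p-values measure the spread between these samples.

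Nrf2 is held in the cytoplasm by Keap1, which hands it to a ubiquitin ligase for degradation. When oxidants or electrophiles modify Keap1, Nrf2 accumulates, enters the nucleus and, paired with small Maf proteins, binds antioxidant response elements near its target genes. The protein is therefore regulated largely by its stability, which transcript counts do not measure. Its classical targets make glutathione (Gclc and Gclm), keep thioredoxin and peroxiredoxins reduced (Txnrd1 and Srxn1), reduce quinones (Nqo1), break down haem (Hmox1) and conjugate reactive aldehydes (Gsta4). Sod2 and Cat act on superoxide and hydrogen peroxide and are also controlled by other factors.

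Library totals ran from 16541396 to 26065856 counts, and all 30-day libraries were shallower than those of the later time points. The mucin-like secretory gene Mucl2 took 31.4% to 42.8% of all counts. All 10 acinar marker genes listed for the gland had counts, and their summed level was 311224 to 648358 CPM (counts per 1000000 after TMM, trimmed mean of M-values, scaling). Values below are on this CPM scale unless stated otherwise. The tissue is a mixture of cell types, and in such bulk samples fewer cells of a type and less RNA per cell cannot be told apart.

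No gene of the 10 changed past the threshold between any pair of time points. With edgeR's quasi-likelihood test and Benjamini-Hochberg adjustment over all 15224 genes, 0 of 10 had an adjusted p under 0.05 at 60 against 30 days, where 1.56% of all genes did (1.14% higher and 0.427% lower). The count was also 0 at 90 against 60 days, where 0.256% of all genes passed (0.092% higher and 0.164% lower), and at 90 against 30 days, where 3.57% passed (1.81% higher and 1.77% lower). At an unadjusted p under 0.05 the counts were 0, 3 and 2 in that order, beside 1883, 1637 and 2560 of all 15224 genes. DESeq2 and limma-voom likewise called 0 of the 10 in each comparison, with 0, 3 and 1 under an unadjusted 0.05 for DESeq2 and 0, 3 and 2 for limma-voom. At 90 against 60 days DESeq2 gave no adjusted p for Nqo1, which therefore could not be called there. The CPM of the groups did not overlap for 1 gene at 60 against 30 days (Srxn1), where this held for 16.9% of all genes, 8.65% higher and 8.22% lower. It held for 3 genes at 90 against 60 days (Nqo1, Cat and Gsta4), beside 15.9% of all genes, 8.3% higher and 7.64% lower. At 90 against 30 days it held for 3 genes (Nqo1, Gclm and Cat), beside 23.2% of all genes, 11.4% higher and 11.8% lower. In all these cases the later time point was higher, and the shares of 10 genes are too coarse to set them apart from the background. The median log2 fold change of the 10 was 0.00 at 60 against 30 days, 0.01 at 90 against 60 days and 0.16 at 90 against 30 days, where the medians of all genes tested were 0.00, 0.00 and 0.01.

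The precision of the data bounds how large a difference could have gone unseen. In each of the 3 comparisons, the 95% interval of the log2 fold change lay within ±1 for 9 of the 10 genes and within ±0.5 for 6. Nqo1 had the widest interval and Sod2 the narrowest in every comparison. Scaling by library size alone shifted the all-gene median to 0.24 at 90 against 30 days and to 0.18 at 90 against 60 days (log2). Under that scaling all 10 genes had positive fold changes in these comparisons, in place of 8 and 5, so the signs of small differences below are those under TMM scaling.

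**Figure D1:**
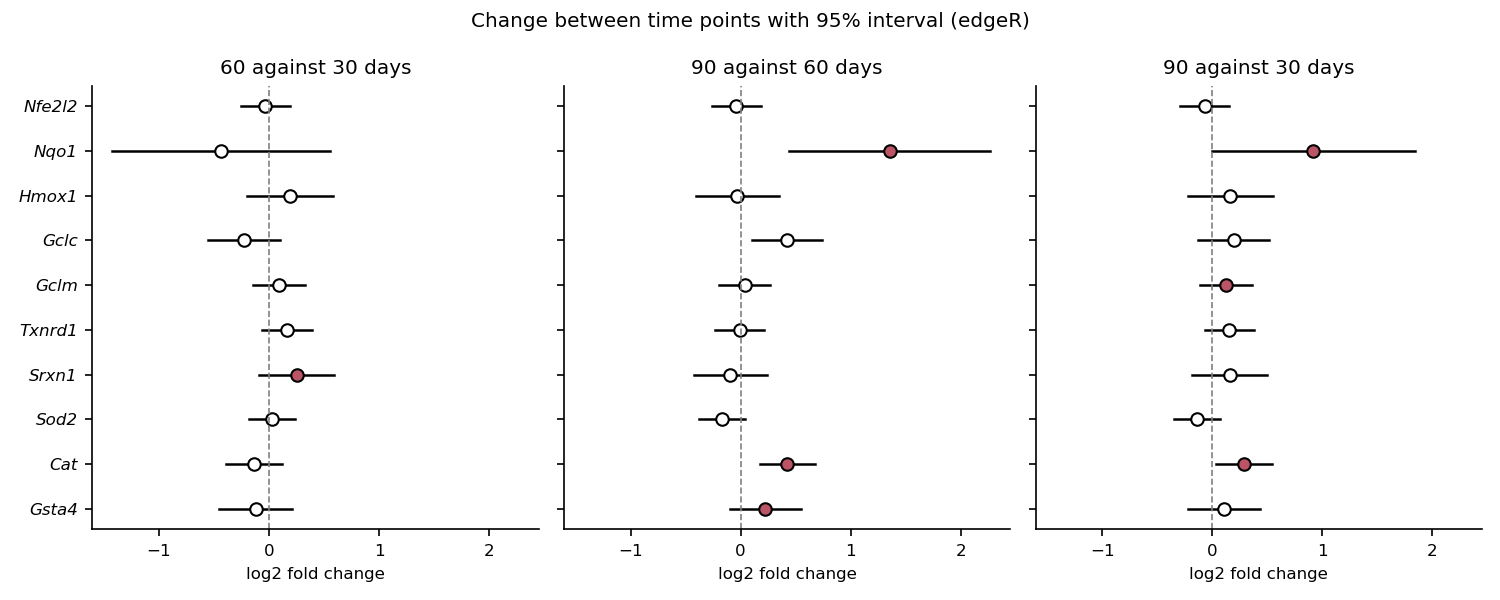
The horizontal axis of each panel is the log2 fold change between the time points named above it, and each row is a gene. Circles are the estimates and lines their 95% intervals from edgeR, and filled circles mark genes whose libraries did not overlap between the groups, such as Nqo1 and Cat at 90 against 60 days.

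Per kilobase of exon, the genes spanned about 2 orders of magnitude. Cat stood highest with 73.7 ± 12.0 CPM per kilobase (SD, n = 9 libraries), at the 98.6th percentile of all genes tested. Nfe2l2 followed with 12.9 ± 0.993 and Sod2 with 10.5 ± 0.799, and the lowest Nfe2l2 library lay just under the highest Sod2 library. Txnrd1 with 6.65 ± 0.579, Gsta4 with 6.64 ± 0.629 and Gclc with 4.87 ± 0.843 came next. The libraries of each of these overlapped those of its neighbour in the order. Srxn1 with 3.84 ± 0.566, Gclm with 3.79 ± 0.259 and Hmox1 with 3.64 ± 0.419 were not separated. Nqo1 was lowest with 0.548 ± 0.250, and its highest library (0.885) lay under the lowest of Hmox1 (2.98). Lengths are the union of all annotated exons, 10008 bases for Sod2 and 1266 for Gsta4, so genes with long alternative ends appear lower than their main transcript would.

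**Figure D2:**
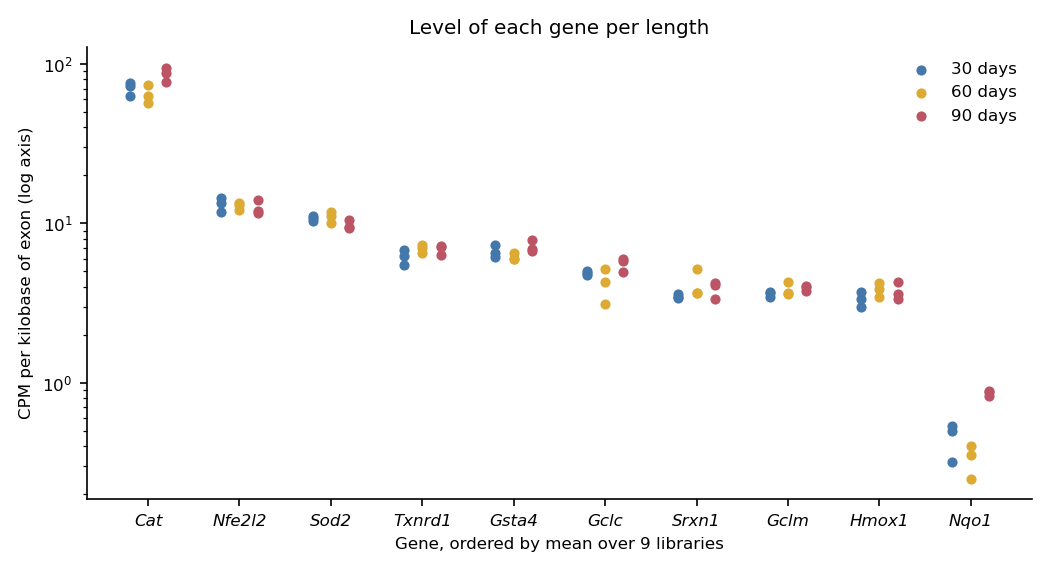
Each point is a library, coloured by time point, and the log axis gives CPM per kilobase of exon for the 10 genes in order of their mean. Cat lies apart at the top and Nqo1 at the bottom, with its 3 libraries of 90 days above its other 6.

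Nfe2l2 itself (ENSMUSG00000015839, chromosome 2, 75675513 to 75704641, minus strand, GRCm38) measured 50.8, 54.4 and 44.8 CPM in the 30-day libraries, 46.2, 50.7 and 49.6 at 60 days, and 45.4, 53.0 and 44.2 at 90 days. All groups overlapped, and the highest library was only 1.23 times the lowest. From 30 days to 90 days the log2 fold change was -0.07 ± 0.11 (SE; 95% interval -0.30 to 0.15; edgeR adjusted p = 0.815). Keap1, the Nrf2 repressor, likewise went from 37.4 ± 1.93 to 38.9 ± 3.33 and 37.5 ± 4.57 CPM (SD, n = 3 each), with an interval of -0.23 to 0.24 from 30 to 90 days (adjusted p = 0.988). Bach1, a repressor that competes with Nrf2 for the same elements, measured 14.2 ± 2.07 CPM at 30 days and 15.6 ± 0.340 at 90 days (adjusted p = 0.688).

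The core of the antioxidant response element, TGACNNNGC, was searched on both strands in RefSeq promoter windows (GRCm38.p6) reaching from 250 bases before to 50 after an annotated gene start. Windows were given for 7 of the 10 genes, and 4 of these 7 (Nfe2l2, Gclm, Txnrd1 and Srxn1) held a match, against 14.0% of the 27025 genes with a window. A match is a description of letters and not of binding, and no match in this window says nothing of elements farther away. The matches that lie before the start are shown because they are where the core occurs upstream of Nfe2l2 and of 2 classical target genes. The capitals mark the match, written 5′ to 3′ on the strand of the gene, on which the Gclm and Txnrd1 matches read as the reverse complement.
Nfe2l2, 2:75704875-75704913, minus strand: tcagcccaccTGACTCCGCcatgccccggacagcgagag
Gclm, 3:122245403-122245451, plus strand: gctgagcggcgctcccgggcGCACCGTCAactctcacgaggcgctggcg
Txnrd1, 10:82859094-82859142, plus strand: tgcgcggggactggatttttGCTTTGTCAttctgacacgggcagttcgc
The Nfe2l2 match starts 240 bases before the gene start, the Gclm match 134 bases before it and the Txnrd1 match 92 bases before 1 of its 3 annotated starts. The Srxn1 match lies after the start, from base 29 to base 37. None of these 4 genes changed past the threshold in any comparison.

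The glutathione synthesis genes encode the subunits of glutamate-cysteine ligase, the rate-limiting enzyme. The catalytic subunit gene Gclc (ENSMUSG00000032350, chromosome 9, 77754535 to 77794485, plus strand) measured 18.8, 18.0 and 18.4 CPM at 30 days, 11.7, 16.0 and 19.4 at 60 days and 21.8, 22.4 and 18.6 at 90 days. The 30-day libraries were nearly equal, with a coefficient of variation of 2.27%, while the 60-day libraries spread by 24.9% and overlapped both other groups. From 60 to 90 days the log2 fold change was 0.42 ± 0.15 (SE; 95% interval 0.10 to 0.74), with an unadjusted p of 0.0128 in edgeR's test and an adjusted p of 0.319. The lowest adjusted p over the alternatives was 0.0773. The modifier subunit gene Gclm (ENSMUSG00000028124, chromosome 3, 122245557 to 122270732, plus strand) measured 21.6, 23.4 and 23.0 CPM at 30 days, 26.8, 22.5 and 23.0 at 60 days and 25.3, 25.2 and 23.7 at 90 days. The 90-day libraries were all above the 30-day ones, by 0.13 ± 0.11 on the log2 scale (SE; 95% interval -0.11 to 0.36; edgeR adjusted p = 0.644). Gclm shares 296 exonic bases with an antisense transcript and 244 with a processed pseudogene. How reads there were counted is not given in the sources used here. Downstream in the pathway, glutathione synthetase Gss and glutathione reductase Gsr went from 12.8 ± 1.04 to 13.5 ± 0.463 CPM and from 18.7 ± 1.26 to 21.2 ± 2.04 CPM between 30 and 90 days (SD, n = 3 each; edgeR adjusted p = 0.851 and 0.486). Slc7a11, the cystine importer that feeds the pathway, had 33 counts in all 9 libraries together and fell under the filter.

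In the thioredoxin system, neither Txnrd1 nor Srxn1 passed the test. Txnrd1 (ENSMUSG00000020250, chromosome 10, 82833951 to 82897712, plus strand), the cytosolic thioredoxin reductase, measured 38.8, 48.0 and 44.3 CPM at 30 days, 49.5, 45.9 and 51.6 at 60 days and 44.8, 51.3 and 49.9 at 90 days. The log2 fold change was 0.16 ± 0.11 from 30 to 60 days (SE; 95% interval -0.06 to 0.39; edgeR adjusted p = 0.581) and -0.01 ± 0.11 from 60 to 90 days (SE; 95% interval -0.23 to 0.21; adjusted p = 0.987). Srxn1 (ENSMUSG00000032802, chromosome 2, 152105516 to 152111376, plus strand) encodes sulfiredoxin, which revives over-oxidised peroxiredoxins. It measured 9.64, 10.2 and 9.71 CPM at 30 days, 14.5, 10.4 and 10.3 at 60 days and 9.47, 11.9 and 11.5 at 90 days. The 60-day libraries were all above the 30-day ones, though only sample 1 by more than a narrow margin. The log2 fold change was 0.25 ± 0.16 (SE; 95% interval -0.09 to 0.59; edgeR adjusted p = 0.585). Their substrates thioredoxin, Txn1, and peroxiredoxin 1, Prdx1, measured 32.5 ± 4.19 and 121 ± 9.95 CPM at 30 days and 41.7 ± 5.21 and 134 ± 9.36 CPM at 90 days (SD, n = 3 each; edgeR adjusted p = 0.140 and 0.527).

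Nqo1 (ENSMUSG00000003849, chromosome 8, 107388225 to 107403206, minus strand), a quinone reductase often used as a readout of Nrf2 activity, was scarce and had the largest estimated difference of the 10. It measured 0.496, 0.832 and 0.770 CPM at 30 days, 0.388, 0.543 and 0.626 at 60 days and 1.28, 1.37 and 1.36 at 90 days. All 3 libraries of 90 days lay above the other 6. Their coefficient of variation was 3.70%, but with 38, 40 and 27 counts the counting error alone is larger than that. From 60 to 90 days the estimate was 2.56-fold, or 1.35 ± 0.43 on the log2 scale (SE; 95% interval 0.44 to 2.27; unadjusted p = 0.00548, edgeR adjusted p = 0.256). From 30 to 90 days it was 1.89-fold, or 0.92 ± 0.44 (SE; unadjusted p = 0.0481, edgeR adjusted p = 0.292). The 95% interval from 30 to 90 days was -0.0005 to 1.84 on the log2 scale and so included 0. Over the alternatives with an adjusted p, the range was 0.202 to 0.602 for 60 to 90 days and 0.232 to 0.635 for 30 to 90 days, and DESeq2 gave an adjusted p of NA for the former. These values rest on 7 to 40 counts per library, so the estimate is imprecise and the difference did not pass the test.

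Hmox1 (ENSMUSG00000005413, chromosome 8, 75093621 to 75100589, plus strand), the inducible haem oxygenase, measured 6.52, 5.88 and 5.21 CPM at 30 days, 7.38, 6.74 and 6.01 at 60 days and 5.90, 7.46 and 6.32 at 90 days. The groups overlapped, and the 95% interval from 30 to 90 days was -0.23 to 0.55 on the log2 scale (edgeR adjusted p = 0.738). Gsta4 (ENSMUSG00000032348, chromosome 9, 78182774 to 78209349, plus strand), a glutathione transferase for the lipid peroxidation product 4-hydroxynonenal, measured 9.29, 7.79 and 8.23 CPM at 30 days, 8.20, 7.51 and 7.55 at 60 days and 9.88, 8.77 and 8.48 at 90 days. Its 90-day libraries were all above the 60-day ones, by 0.22 ± 0.15 on the log2 scale (SE; 95% interval -0.10 to 0.55; edgeR adjusted p = 0.638). The related transferase gene Gsta3 measured 5.47 ± 1.08, 4.01 ± 0.317 and 5.98 ± 2.15 CPM at 30, 60 and 90 days (SD, n = 3 each; edgeR adjusted p = 0.415 for 60 to 90 days). Members of this family resemble each other, and how shared reads were assigned is not given in the sources used here.

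Cat (ENSMUSG00000027187, chromosome 2, 103453849 to 103485160, minus strand) encodes catalase, the peroxisomal enzyme that splits hydrogen peroxide. It measured 165, 199 and 190.3 CPM at 30 days, 192, 164 and 148 at 60 days and 248, 228 and 201 at 90 days. The 3 libraries of 90 days were the 3 highest, though the lowest of them was close to the highest 30-day library. The log2 fold change was 0.42 ± 0.12 from 60 to 90 days (SE; 95% interval 0.17 to 0.67; unadjusted p = 0.00231, edgeR adjusted p = 0.185) and 0.29 ± 0.12 from 30 to 90 days (SE; unadjusted p = 0.0273, edgeR adjusted p = 0.227). With no filter on low counts the adjusted p of Cat for 60 to 90 days was 0.0250, the only case in which 1 of the 10 genes passed in an alternative, and the range over the alternatives was 0.0250 to 0.556. Sod2 (ENSMUSG00000006818, chromosome 17, 13006846 to 13040063, plus strand), the mitochondrial superoxide dismutase, measured 112, 103 and 108 CPM at 30 days, 117, 111 and 100.3 at 60 days and 92.8, 95.1 and 104 at 90 days. The groups overlapped, and from 60 to 90 days the log2 fold change was -0.17 ± 0.10 (SE; 95% interval -0.38 to 0.04; edgeR adjusted p = 0.573). The cytosolic Sod1 went from 50.0 ± 5.70 to 59.4 ± 5.63 CPM from 30 to 90 days, the secreted Sod3 from 2.97 ± 0.591 to 2.06 ± 0.435 CPM, and Gpx1, a glutathione peroxidase, from 211 ± 4.83 to 185 ± 6.51 CPM (SD, n = 3 each; edgeR adjusted p = 0.327, 0.367 and 0.358).

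**Figure D3:**
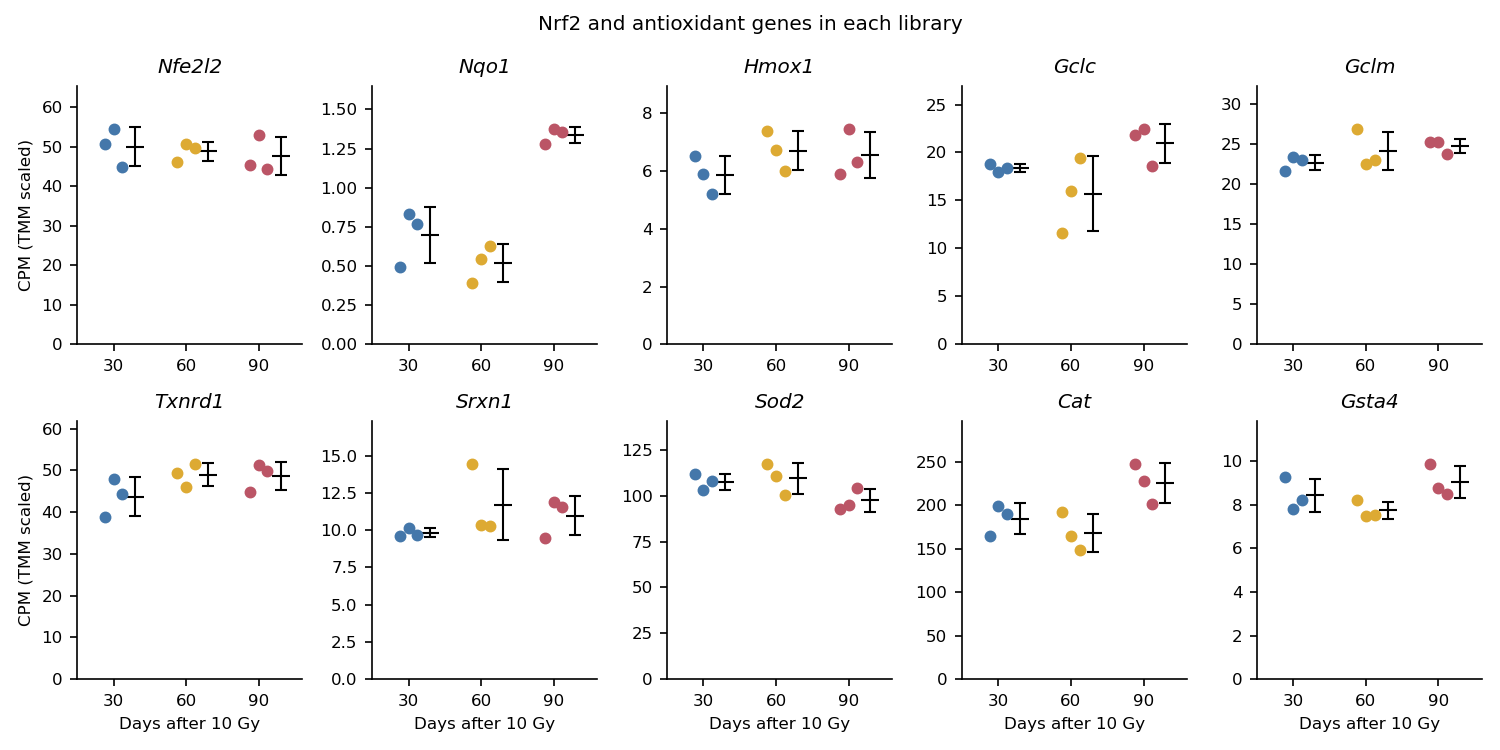
Each panel is a gene, with days after 10 Gy on the horizontal axis and TMM-scaled CPM on a vertical axis that starts at 0. Points are libraries and bars show mean ± SD (n = 3). The 90-day libraries of Nqo1 and Cat lie above all others, and the 60-day libraries of Gclc and Srxn1 spread more than those of 30 days.

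No library stood high or low for all 10 genes. Sample 1 at 60 days was the highest library for 3 genes (Gclm, Srxn1 and Sod2) and the lowest for 2 (Nqo1 and Gclc). Sample 2 at 90 days was the highest for 3 (Nqo1, Hmox1 and Gclc) and the lowest for 0. Summed levels of several marker lists also differed between 60 and 90 days, as did Nqo1 and Cat in their non-overlapping libraries. The 6 T lymphocyte markers summed to 0.851 to 1.48 CPM at 30 days, 0.777 to 1.94 at 60 days and 2.66 to 8.77 at 90 days. The 6 B and plasma cell markers summed to 23.5 to 59.9, 26.6 to 36.2 and 78.5 to 117 CPM, and the 6 erythrocyte markers to 43.9 to 84.5, 43.2 to 72.7 and 74.5 to 229 CPM. The 12 macrophage markers summed to 194 to 351, 239 to 265 and 265 to 440 CPM, and macrophages also express Hmox1. The macrophage and erythrocyte sums at 90 days overlapped those at 30 days. The highest 60-day and the lowest 90-day macrophage sums nearly met, at 264.77 and 265.25 CPM. The 6 endothelial markers summed to 72.5 to 81.3, 63.6 to 69.9 and 72.9 to 93.1 CPM. In each of these lists the highest sum of all libraries was that of sample 2 at 90 days. None of these markers was at 0 over the 9 libraries. The markers tested were 3 T lymphocyte, 3 B and plasma cell, 5 erythrocyte, 10 macrophage and 6 endothelial genes. From 60 to 90 days 0 of them had an edgeR adjusted p under 0.05. Those with an unadjusted p under 0.05 numbered 3, 3, 4, 0 and 1 in that order, beside 1637 of all 15224 genes. Of 9 acinar markers tested, 8 had negative log2 fold changes from 60 to 90 days (median -0.32), and 1 of them, the secretory transcription factor gene Bhlha15, passed (-0.78, edgeR adjusted p = 0.00581). Their part in the Nqo1 and Cat values was not tested.

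Beyond the 10 genes, 155 others were listed for the same functions, of which 135 passed the filter. The lists were chosen with earlier results of these data known, so the shares below are descriptive and no independent evidence. From 30 to 60 days 4 of the 135 rose and 1 fell (3.70%, beside 1.56% of all genes), and from 30 to 90 days 8 rose and 5 fell (9.63%, beside 3.57%). From 60 to 90 days 0 passed in edgeR's test and in limma-voom, beside 0.256% of all genes. At an unadjusted p under 0.05 in edgeR there were 21, beside 1637 of all 15224 genes. The number past the adjusted threshold rose from 0 to 4 with DESeq2, 8 without the low-count filter and 3 with the sample number as a block. Over all genes the calls went from 39 to 150, 354 (of 27001 tested) and 92 in these settings. The number in the lists was 1 with library-size scaling, 1 without 30-day sample 1 or 60-day sample 1 and 2 without 60-day sample 3. Calls over all genes were then 28, 87, 38 and 103 in that order. The counts from 30 to 90 days were 3 and 1 without 30-day sample 1, 3 and 3 without 30-day sample 2, 3 and 2 without 90-day sample 2, and 3 and 1 without 90-day sample 3. Calls over all genes without these samples were 184, 333, 190 and 246 in that order, in place of 544. With library-size scaling the rises and falls in the lists were 8 and 1, beside 440 calls over all genes. Those from 30 to 60 days were 1 and 0 without 30-day sample 1 or with library-size scaling. They were 2 in all with limma-voom, 3 with the 6 samples alone and 0 without 60-day sample 2. Calls over all genes were then 102, 90, 152, 193 and 73 in that order, in place of 238. The median log2 fold change of the 135 from 30 to 90 days was 0.015, beside 0.014 for all genes.

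Of the 33 conjugation and quinone reduction genes tested, 2 rose and 1 fell from 30 to 90 days and 30 did not pass. Ephx1, the microsomal epoxide hydrolase and a known Nrf2 target, fell from 267, 217 and 218 CPM at 30 days to 173, 155 and 153 at 60 days and 132, 138 and 139 at 90 days. Each group lay below the one before, and from 30 days to 90 days the log2 fold change was -0.78 ± 0.11 (SE; edgeR adjusted p = 0.000567). Mgst1, a microsomal glutathione transferase, rose from 9.36, 11.6 and 10.2 CPM at 30 days through 11.8, 14.2 and 13.5 at 60 days to 17.8, 22.2 and 19.1 at 90 days, a log2 fold change of 0.92 ± 0.14 from 30 to 90 days (SE; edgeR adjusted p = 0.00102). Gsto1, an omega-class transferase, rose from 28.7 ± 5.59 to 49.3 ± 3.08 CPM over the same interval (SD, n = 3 each; edgeR adjusted p = 0.00500). Between 30 and 90 days these 3 genes kept an adjusted p under 0.05 in all 17 alternatives. Of the calls from 30 to 60 days, Gsto1 (adjusted p = 0.0248) and Ephx1 (adjusted p = 0.0131) lost theirs without 30-day sample 1 (0.122 and 0.0935) or 60-day sample 2 (0.143 and 0.111) and with library-size scaling (0.0824 and 0.162), and Gsto1 also without 60-day sample 1 (0.0902) and with limma-voom (0.0511).

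Of the other genes that passed, Nfe2l3, which encodes the Nrf2 relative Nrf3, rose from 9.71 ± 1.61 to 17.5 ± 1.55 CPM from 30 to 60 days and was 16.3 ± 2.53 CPM by 90 days (SD, n = 3 each; edgeR adjusted p = 0.00640 and 0.0107 against 30 days). The former call held in 16 of 17 alternatives and was lost without 60-day sample 2 (adjusted p = 0.0609), and the latter without 30-day sample 1 or 2 or 90-day sample 3 (adjusted p = 0.0724, 0.0535 and 0.0684). From 30 to 90 days the thioredoxin-binding protein gene Txnip rose by 0.59 ± 0.14, the constitutive haem oxygenase gene Hmox2 by 0.52 ± 0.12, and G6pdx, the entry enzyme of the NADPH-producing pentose phosphate pathway, by 0.54 ± 0.13 on the log2 scale (SE; edgeR adjusted p = 0.0186, 0.0181 and 0.0204). The mitochondrial malic enzyme gene Me3 and Duoxa2, the maturation factor of an oxidase, rose by 0.51 ± 0.14 and 0.82 ± 0.20 (SE; edgeR adjusted p = 0.0430 and 0.0485). The sestrin gene Sesn2 changed by -0.78 ± 0.18, the folate enzyme gene Aldh1l1 by -0.58 ± 0.15, the lactoperoxidase gene Lpo, a secreted acinar product, by -0.60 ± 0.16 and the repressor gene Bach2 by -0.69 ± 0.17 (SE; edgeR adjusted p = 0.0225, 0.0340, 0.0454 and 0.0333). Txnip and Me3 also passed from 30 to 60 days (edgeR adjusted p = 0.0473 and 0.0327), but Txnip lost this call in 12 of 17 alternatives, among them leaving out any library except 60-day sample 3, and Me3 in 7, among them leaving out 30-day sample 1 or 2 or 60-day sample 2 or 3. The highest adjusted p was 0.255 for Txnip and 0.183 for Me3. Leaving out 1 library ended several calls of 90 against 30 days, with adjusted p-values from 0.0547 to 0.258. The 30-day libraries whose absence did so were sample 1 for G6pdx, Hmox2, Sesn2, Bach2, Aldh1l1, Lpo, Me3 and Duoxa2, sample 2 for Txnip, Hmox2, Bach2, Lpo, Me3 and Duoxa2, and sample 3 for Sesn2, Aldh1l1 and Duoxa2. The absence of 60-day sample 2, which is in neither group of this comparison, did so for Aldh1l1, Lpo, Me3 and Duoxa2. Of the 90-day libraries, sample 1 did so for Sesn2, Me3 and Duoxa2, sample 2 for all of these genes but Sesn2, and sample 3 for all but Txnip. With library-size scaling the falls of Bach2, Sesn2, Aldh1l1 and Lpo lost their calls (adjusted p = 0.260, 0.148, 0.305 and 0.210). With limma-voom Bach2, Me3 and Aldh1l1 lost theirs (adjusted p = 0.0692, 0.0723 and 0.0740), and with the 6 samples alone Me3 and Aldh1l1 did (adjusted p = 0.0504 and 0.0618). Marker lists of 3 epithelial cell types differed over the same interval. The 7 granular duct markers summed to 21518 to 29719 CPM at 30 days and to 37065 to 53420 CPM at 90 days, and 6 of 7 rose. Of 9 acinar markers tested, a list that also holds Lpo, 1 rose and 2 fell (median log2 fold change -0.45). All 7 myoepithelial and basal markers tested had positive fold changes (median 0.47) and an unadjusted p under 0.05. Such a p held for 2560 of all 15224 genes. Of the 7 markers, 1 (Trp63) passed with an edgeR adjusted p of 0.0289. Their part in the changes of the redox genes was not tested.

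**Figure D4:**
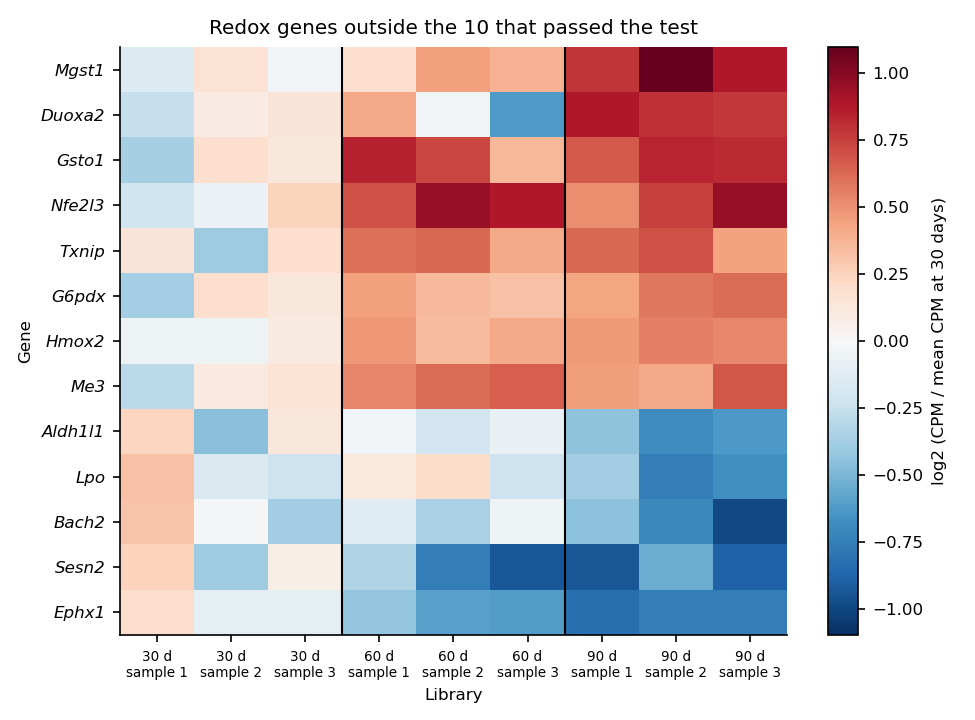
Rows are the 13 redox genes outside the 10 that passed the edgeR test and columns the 9 libraries in order of time point. Colour gives the log2 ratio of CPM to the mean of the 30-day libraries, red above and blue below. All 3 libraries of 90 days are red for the 8 genes that rose from 30 to 90 days and blue for the 5 that fell, while the 60-day libraries of Duoxa2 and Lpo hold both colours.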

How the data were processed

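RNA from 4 sections of 50 µm per gland went into a SMARTER mRNA-seq preparation, per the labels' protocols. The authors deposited raw read counts per gene. fastp, STAR, featureCounts and mm10 are named in the submitters' processing notes. Their versions, the annotation and the strand setting are not given in the sources used here. The table has 3 more columns whose names fit no listed sample, and they were left out. Symbols were found for 54409 identifiers, and positions and exon lengths come from GENCODE M21 (GRCm38).

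Genes were filtered with filterByExpr (minimum count 10), scaled by TMM and tested with edgeR 4.0.16 (quasi-likelihood, robust) in 1 fit of all 9 libraries in R 4.3.3, with Benjamini-Hochberg adjustment over 15224 genes and a threshold of 0.05. Intervals are 95% t intervals from that fit. The test was checked on simulated data. A floor of 3 counts corresponds to 0.101 to 0.213 CPM, covering counting error only. Alternatives used DESeq2 1.42.0, size factors of its type, library-size scaling, limma-voom (limma 3.58.1), no filter, at least 10 counts in every sample, the 6 samples of a comparison alone, the sample number as a block, and leaving out each sample. Their use on the count over the 155 further genes was added after seeing the data. The rule for named genes took the 10 genes, up to 3 per list that passed and 11 fixed names, and genes of like pattern only for members that passed, of which there were 0. The members and lists were chosen with earlier results of these data known. Figures were drawn with matplotlib 3.10.9.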

Additional observations from a re-analysis of the deposited data

How the results depend on the processing

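None of the 10 genes passed in any comparison under 16 of the 17 alternatives. With no filter on low counts 1 (Cat) passed from 60 to 90 days. Leaving out single samples gave 0 to 0 in each comparison. With at least 10 counts in every sample Nqo1 was not tested, and DESeq2 gave it no adjusted p from 60 to 90 days. Over all genes, the 238 calls of 60 against 30 days became 90 with library-size scaling, 376 with DESeq2, 152 with limma-voom, 459 without the filter and 73 to 244 without single samples. The 39 calls of 90 against 60 days became 150 with DESeq2, 354 without the filter, 92 with the sample number as a replicate block and 16 to 103 without single samples. The 544 calls of 90 against 30 days became 867 with DESeq2, 1045 without the filter and 184 to 703 without single samples. Library-size scaling gave 440 calls for 90 against 30 days, 406 higher and 34 lower, in place of 275 and 269. From 60 to 90 days it gave 28, of which 19 were higher and 9 lower, in place of 14 and 25. The cause was not tested.

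Whether equal sample numbers pair the libraries could not be settled with 3 libraries per group. Of 9 pairs with the same number, 1 had a correlation of deviations over 0.1 (range -0.06 to 0.19). Of 9 samples, 4 correlated best with their own number. With the block 270 genes passed at 60 against 30 days in place of 238, and 717 at 90 against 30 days in place of 544. At 90 against 60 days 92 passed in place of 39. Of the 10 genes, 0 passed with the block in each comparison. Depth limits Nqo1 in particular, at 7 to 40 counts per library.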
